A study of Homo sapiens with 8 samples.

Results

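Genomic imprinting was examined through 10 genes, H19, IGF2, KCNQ1OT1, CDKN1C, MEG3, DLK1, SNRPN, PEG3, PEG10 and MEST, out of 38694 coding and lncRNA genes on the chromosomes covered. Each was followed over its GENCODE span plus 20 kb on either side, and the intervals between H19 and IGF2 and between DLK1 and MEG3 were added. These loci held 26 of the 96872 regions that remained when the peaks of all libraries were merged. All are textbook imprinted genes.

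The data were 8 ATAC-seq libraries, in which the transposase Tn5 cuts open chromatin, from HEK293T, a human embryonic kidney line expressing SV40 large T antigen. In 4 libraries, called E92K, the cells carried a lentivector for H2A(E92K), a histone H2A with an altered residue in the acidic patch of the nucleosome. In the other 4, called H2A, they carried an H2A lentivector. All cells were untreated and grown in DMEM with serum, and the labels name no loss of the cells' own H2A genes. Whether replicates came from separate cultures or clones is not in the labels, so any p here reflects only how much these libraries varied, which may be technical. The lists held 55527 to 61850 peaks in E92K libraries and 57439 to 62044 in H2A libraries. Relative depth, recovered from the peak values, was 2.23 to 2.68 in E92K libraries and 2.52 to 2.93 in H2A libraries, and the weakest summit called held 9 to 11 fragments. Among markers of embryonic kidney and HEK293 cells, PAX2, SIX2, SALL1, WT1, EYA1, LHX1, CDH2 and VIM had a promoter peak in every library, and PAX8 had none. Of 13 markers of blood, liver, endothelium, fibroblasts, neurons and kidney tubule, 3 (COL1A1, NEFL and INA) had a promoter peak in every library, 8 had one in none, and PTPRC and APOA1 had one in a single E92K library each.

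An imprinted gene is expressed mainly from the copy inherited from one parent. The choice is set by a control region that carries DNA methylation on the copy from one parent only, laid down in the egg or the sperm. At H19 and IGF2 the insulator protein CTCF binds the unmethylated control region upstream of H19 and blocks IGF2, a fetal growth factor, from enhancers it shares with the H19 RNA. The zinc finger proteins ZFP57 and ZNF445 keep methylation at such regions, and ZFP57 reads methylated copies of the hexamer TGCCGC. In an open promoter of an imprinted gene, reads of both parental copies are counted together, and these files hold no allele or methylation information.

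Promoter peaks were found at 4 of the 10 genes, and each of the 4 had one in all 8 libraries: IGF2, KCNQ1OT1, CDKN1C and PEG10. The other 6, H19, DLK1, MEG3, SNRPN, PEG3 and MEST, had no peak within 1000 bp of a TSS of a GENCODE basic transcript in any of the 8 libraries. Genome-wide, 47.1% of 38854 genes had such a peak in every library and 45.5% in none. Among coding genes these shares were 67.7% and 26.0%, and among lncRNA genes 25.6% and 65.9%. No gene of the 10 gained or lost a promoter peak between E92K and H2A libraries.

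The sequences behind the loci are printed first, for 2 sets that the results turn on. The first set is promoters where no peak was called although they are rich in CpG or in the hexamer of ZFP57. They were taken from the RefSeq promoter table for GRCh38.p14, which reaches from 250 bases before to 50 bases after the start of a gene. The table matched 4 of the 10 genes, with 1 entry for H19, 3 for MEG3, 4 for SNRPN and 5 for MEST. For each gene 1 entry was used, and its other entries are not described. The H19 entry, with 6 CpG and without the hexamer, is not printed. RefSeq promoters had a median of 14 CpG. Capitals mark TGCCGC or its reverse complement and, in SNRPN, also GCGCATGC, the core bound by NRF1. The MEG3 sequence is chr14:100825858-100826157, plus strand, with 19 CpG. The SNRPN sequence is chr15:24954737-24955036, plus strand, with 18 CpG. The MEST sequence is chr7:130491835-130492134, plus strand, with 25 CpG, and 2 of its 3 hexamers overlap.
MEG3 promoter: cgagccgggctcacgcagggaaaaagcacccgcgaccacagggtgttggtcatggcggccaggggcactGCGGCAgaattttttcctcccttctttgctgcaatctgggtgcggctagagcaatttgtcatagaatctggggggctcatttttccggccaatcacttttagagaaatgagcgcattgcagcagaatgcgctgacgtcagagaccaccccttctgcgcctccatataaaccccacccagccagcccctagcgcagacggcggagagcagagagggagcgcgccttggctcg
SNRPN promoter: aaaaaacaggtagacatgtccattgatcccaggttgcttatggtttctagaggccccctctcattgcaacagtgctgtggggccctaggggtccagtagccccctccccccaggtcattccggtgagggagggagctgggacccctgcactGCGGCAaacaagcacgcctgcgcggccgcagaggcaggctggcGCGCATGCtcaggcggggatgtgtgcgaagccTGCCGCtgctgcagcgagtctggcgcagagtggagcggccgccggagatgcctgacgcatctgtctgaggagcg
MEST promoter: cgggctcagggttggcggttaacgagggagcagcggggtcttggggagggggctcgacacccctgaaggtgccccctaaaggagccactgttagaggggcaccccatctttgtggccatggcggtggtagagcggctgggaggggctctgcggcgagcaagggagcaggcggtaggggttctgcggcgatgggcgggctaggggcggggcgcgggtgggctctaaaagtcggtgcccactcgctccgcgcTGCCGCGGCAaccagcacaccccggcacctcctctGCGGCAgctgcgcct

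The second set is 300 bases of hg38, plus strand, around the strongest summit of the 2 intergenic or intragenic regions that ranked highest in the imprinted loci. The first lies between H19 and IGF2 at chr11:2089508-2089807 and holds none of the motifs searched. The other lies inside MEG3 at chr14:100851203-100851502, where capitals mark a ZFP57 hexamer and a CTCF core.
H19 to IGF2 interval: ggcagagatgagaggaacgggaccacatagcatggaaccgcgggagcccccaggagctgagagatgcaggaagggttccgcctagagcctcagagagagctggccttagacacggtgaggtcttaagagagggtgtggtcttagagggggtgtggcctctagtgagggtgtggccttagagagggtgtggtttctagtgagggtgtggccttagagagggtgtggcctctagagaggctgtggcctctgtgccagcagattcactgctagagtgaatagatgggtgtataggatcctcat
MEG3 gene body: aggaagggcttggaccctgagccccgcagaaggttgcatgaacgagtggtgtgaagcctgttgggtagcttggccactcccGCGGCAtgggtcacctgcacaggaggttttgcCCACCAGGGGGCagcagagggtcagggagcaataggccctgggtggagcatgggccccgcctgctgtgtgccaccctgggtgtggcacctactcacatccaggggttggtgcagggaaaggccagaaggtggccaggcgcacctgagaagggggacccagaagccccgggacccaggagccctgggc

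**Figure D1:**
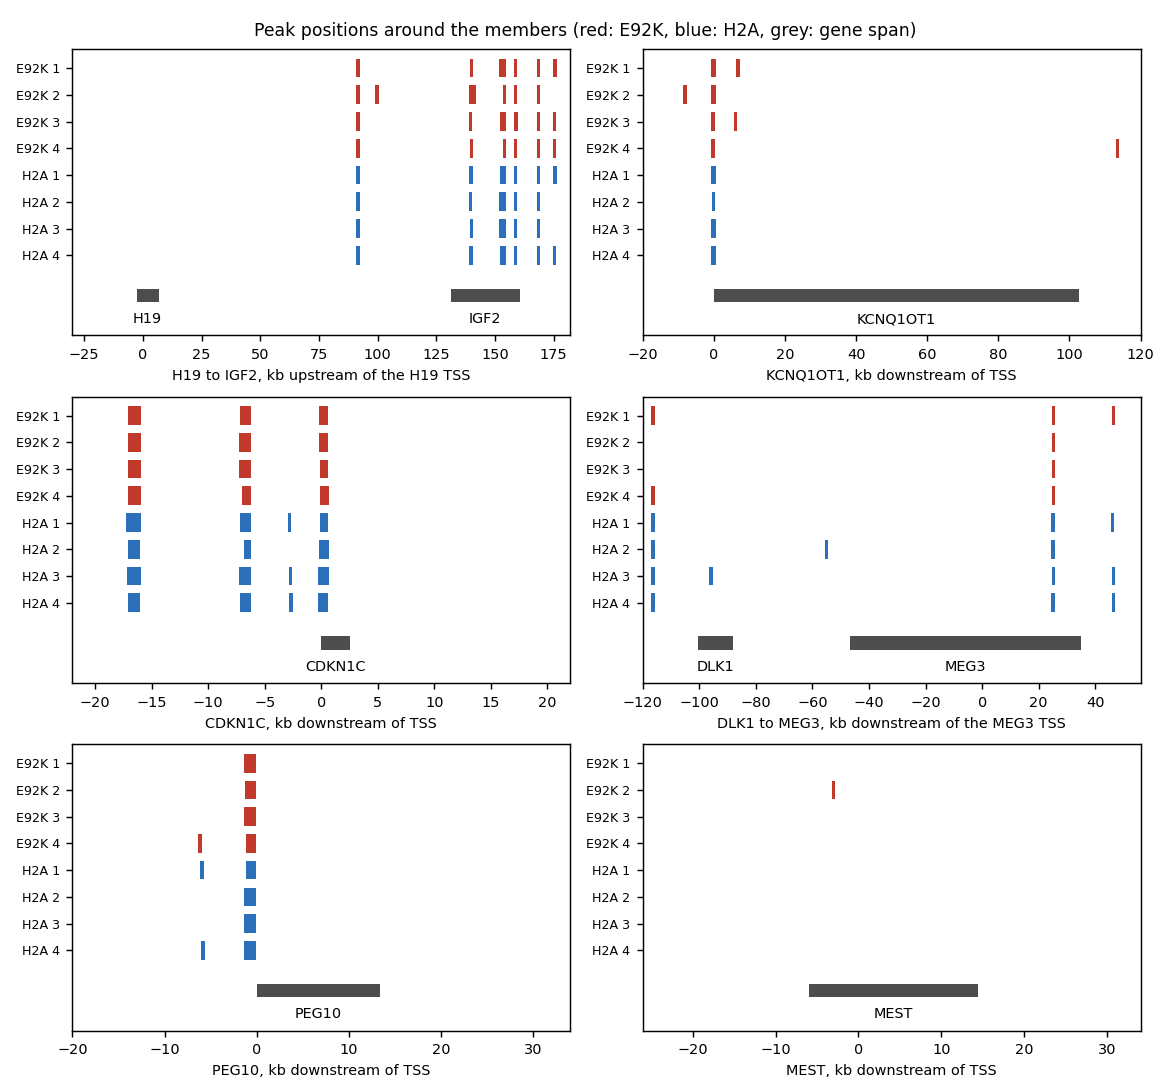
Positions of the peaks of each library around 6 windows of the imprinted loci. The horizontal axes give distance in kb from a TSS of the named gene, each row is 1 library (4 E92K in red above 4 H2A in blue), coloured bars are peaks and grey bars gene spans, with narrow peaks drawn wider than scale to stay visible. The H19 gene and the start of MEG3 have no bar in any row, and the same bars recur in all 8 rows at the KCNQ1OT1, CDKN1C and PEG10 promoters.

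H19 encodes a maternally expressed long noncoding RNA and lies at chr11:1995166-2004552 on the minus strand. No peak of any library fell in its span or within 20 kb of it. The nearest region ended 50.7 kb before its start in the coordinate order and the next began 84.6 kb after its end. From the farther upstream of its 2 basic TSSs to the nearest region found in all 8 libraries was 87.8 kb, and 16.7% of lncRNA genes lay as far or farther. H19 thus stood in a stretch of 144.7 kb without a peak in any list (chr11:1944431-2089111), and 2.48% of the 96849 gaps between neighbouring regions were as long.

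Upstream of the inner H19 TSS at position 1997842, the CTCF consensus of the H19 control region matched 5 times, all on the minus strand. The matches lay 2126 to 5190 bp from that TSS, within 3065 bp at chr11:1999968-2003032. The other H19 TSS lies among them, with 2 of the 5 matches downstream of it by up to 1338 bp and 3 upstream. The consensus is rare, since 0.0341% of all regions and 0.0655% of 35097 RefSeq promoters held it. The matches took 2 forms, the first at 4 of the 5 places, and every letter of each is part of the match.
H19 control region match, first form: CCGCGCGGCGGCAG
H19 control region match, second form: CCGCGTGGCGGCAG
No peak touched any of the 5 matches in an E92K or an H2A library, and the nearest region lay 55.5 kb away. The weakest summits called in any list held 9 to 11 fragments, so a signal below that was not detectable. A stronger summit over more background can also be near the limit. In the KCNQ1OT1 locus, 21 fragments over a local background of 8.04 had a −log10 q of 2.50. The background at H19 is not known, so neither is the signal needed for a call there.

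Between H19 and IGF2, 2 regions were found, and 1 of them was in every library. It was the strongest region of all the loci by enrichment over local background. The KCNQ1OT1 promoter had more fragments at its summit on average in each group. The region between H19 and IGF2 spanned chr11:2089112-2089927, touched no annotated gene, and lay 47.6 kb downstream of the nearest IGF2 TSS. Its fold, the authors' enrichment of the summit over local background, was 12.5, 11.2, 13.9 and 12.7 in E92K libraries and 10.1, 10.5, 11.9 and 13.6 in H2A libraries. The groups overlapped, and the highest H2A library lay just under the highest E92K library. Summits held 107 ± 13.3 fragments in E92K libraries and 108.8 ± 20.7 in H2A libraries (SD, n = 4 each). To compare libraries of unequal depth, each fold was turned into a percentile among the 36895 regions found in all 8 libraries. This region stood at percentile 97.2 ± 2.36 in E92K libraries and 93.3 ± 5.13 in H2A libraries. The difference of 3.85 points had a 95% confidence interval of −1.76 to 9.46 and an adjusted p of 0.706 in limma. The other region, chr11:2097473-2097756, was called in E92K replicate 2 alone, with a fold of 2.96.

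IGF2, at chr11:2129112-2158391 on the minus strand, had 7 regions within 20 kb, of which 4 were in all 8 libraries. Its locus held 5 or 6 regions in each E92K library and 5 or 6 in each H2A library. The promoter region chr11:2137031-2138191 overlapped an IGF2 exon annotated as UTR, with its strongest summit 233 bp upstream of an IGF2 TSS. Its fold was 5.24, 5.44, 4.59 and 4.56 in E92K libraries and 3.89, 4.33, 3.88 and 3.09 in H2A libraries. Every E92K library lay above every H2A library, the only region of the 11 shared ones in these loci for which this held. Genome-wide, 1460 of 36895 shared regions (3.96%) had all E92K folds above all H2A folds, and 576 (1.56%) had them all below, as did 0 of the 11. The promoter stood at percentile 21.4 ± 6.25 in E92K libraries and 9.84 ± 5.53 in H2A libraries, and on this scale the lowest E92K library (15.3) lay below the highest H2A library (16.1). That difference of 11.6 points (95% confidence interval 2.04 to 21.1) had an unadjusted p of 0.0218 and an adjusted p of 0.479 in limma, so it did not pass the test. An unadjusted p under 0.05 was reached by 3264 of the 36895 regions (8.85%) and by 1 of the 11, this one. Summits held 33.2 ± 6.50 fragments in E92K libraries and 25 ± 2.83 in H2A libraries over a local background of 5.87 ± 0.753 and 5.87 ± 0.354 fragments (SD, n = 4 each).

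A second IGF2 promoter window, around the most CpG-rich TSS at 2139389, was touched only by a region of E92K replicate 2. This region, chr11:2138882-2139266, ended short of that TSS and had a fold of 2.86. A region under 1000 bp upstream of a further IGF2 TSS, chr11:2150128-2150820, was called in 2 E92K and 4 H2A libraries. Its fold was 2.56 and 2.84 in E92K replicates 1 and 3, against 3.41, 2.80, 3.49 and 3.45 in the H2A libraries. The 2 missing calls were E92K replicates 2 and 4.

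There were 3 other shared regions at IGF2, 2 in introns and 1 over the neighbouring gene TH. An intronic region, chr11:2151377-2152418, had folds of 3.85, 4.06, 4.19 and 4.13 in E92K libraries and 3.73, 5.35, 3.93 and 3.497 in H2A libraries. The groups overlapped, with 1 H2A library above all others. The region chr11:2156393-2157057, in an intron of IGF2 and INS-IGF2 and with a CTCF core near its summit, had folds of 5.16, 6.08, 5.87 and 6.20 in E92K libraries and 6.02, 4.12, 4.70 and 5.61 in H2A libraries. Here 3 of the 4 E92K libraries lay above 3 of the 4 H2A libraries. A region over coding exons of TH, the tyrosine hydroxylase gene upstream of IGF2 (chr11:2166065-2166669), had folds of 3.27, 3.92, 3.39 and 6.17 in E92K libraries and 3.05, 2.98, 4.50 and 4.52 in H2A libraries. E92K replicate 4 stood apart from its group there. A weak region farther out, chr11:2173086-2173761 over MIR4686, had folds of 3.17, 3.23 and 3.81 in E92K replicates 1, 3 and 4, against 3.23 and 3.53 in H2A replicates 1 and 4. None of the 3 shared regions passed limma, with adjusted p of 0.882, 0.815 and 0.929 for differences of −3.70, 7.39 and 3.79 points.

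**Figure D2:**
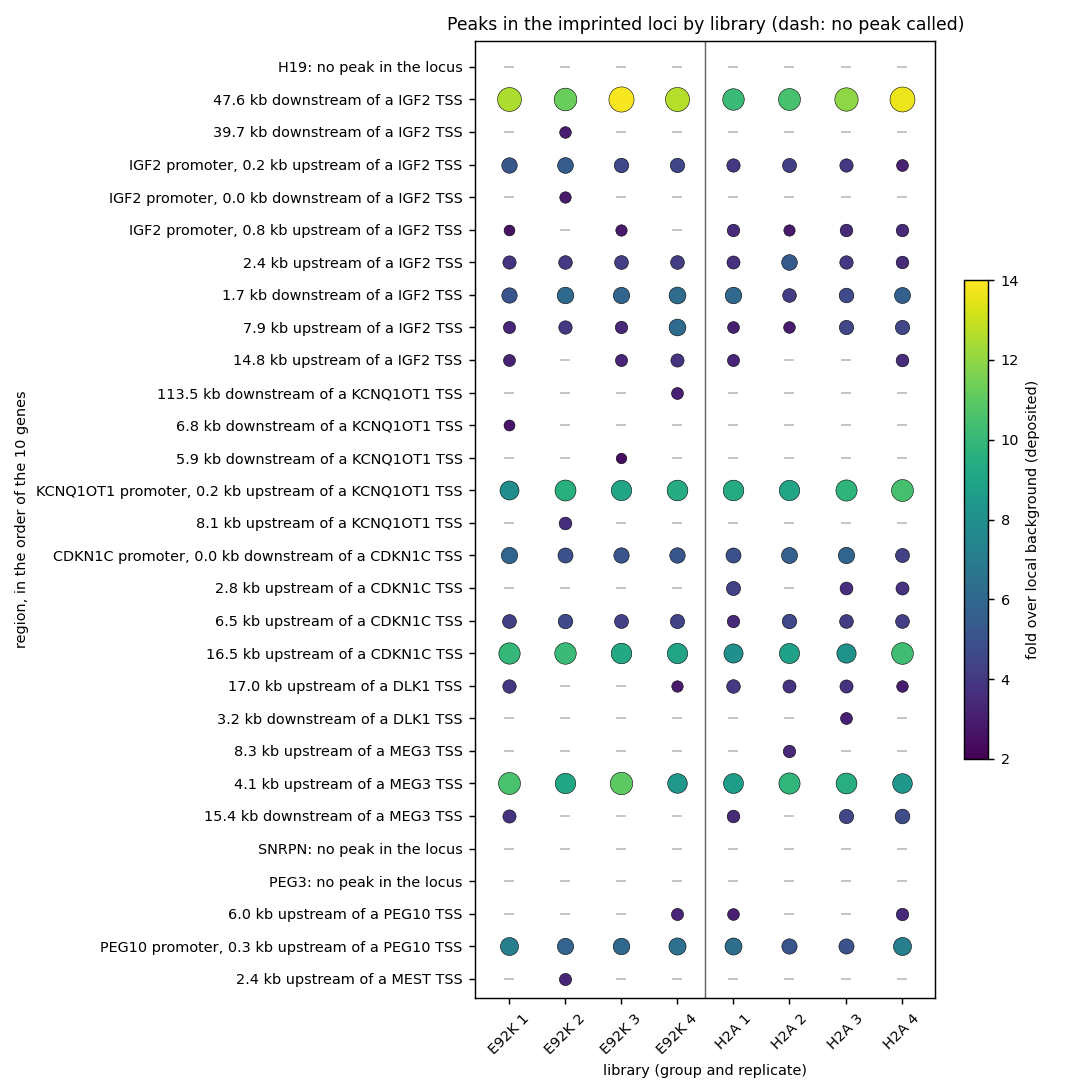
Fold over local background of every region in the imprinted loci and between the gene pairs. Rows are regions by distance to the nearest TSS of their gene, columns are the 4 E92K and then the 4 H2A libraries, the area and colour of a circle give the deposited fold, and a dash means that no peak was called. The row 47.6 kb downstream of an IGF2 TSS has the largest circles, with folds of 10.1 to 13.9, and the rows of H19, SNRPN and PEG3 hold dashes throughout.

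KCNQ1OT1, the noncoding RNA that runs antisense inside KCNQ1 and silences its neighbours on the paternal copy, starts at the control region of the CDKN1C domain. Its promoter region, chr11:2699283-2700820, spanned the TSS, overlapped an exon of the RNA and an intron of KCNQ1, and held 2 TGCCGC hexamers in the 500 bp around its summit. Its fold was 7.90, 9.63, 9.08 and 9.38 in E92K libraries and 9.34, 9.11, 9.83 and 10.5 in H2A libraries. The ranges overlapped, with the lowest value in E92K replicate 1 and the highest in H2A replicate 4. At percentile 74.9 ± 8.14 in E92K libraries and 82.5 ± 3.48 in H2A libraries, the difference of −7.66 points (95% confidence interval −17.7 to 2.41) had an adjusted p of 0.672 in limma. It was the strongest promoter region of the 10 genes.

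Beyond that promoter the span of KCNQ1OT1, chr11:2597308-2700003 on the minus strand, was nearly free of peaks. The other 4 regions of its locus were each called in a single library, one in each E92K library and none in an H2A library. Their folds were low, 2.63, 3.54, 2.43 and 3.11 in E92K replicates 1 to 4, and their summits held 12 to 21 fragments. They lay at 4 different places, so no single place separated the groups. The locus therefore held 2 regions in every E92K library and 1 in every H2A library. Of all 38694 genes, 74 (0.191%) had more regions in every E92K library than in any H2A library, and 210 (0.543%) had fewer, as did 0 of the 10 imprinted genes. The 4 single-library peaks had a −log10 q of 2.50 to 3.33, so none was kept at a −log10 q of at least 5.

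CDKN1C, which encodes the cyclin-dependent kinase inhibitor p57 and is expressed from the maternal copy, had 4 regions, 3 of them in all libraries. The promoter region chr11:2885091-2886033 covered the TSS, UTR and coding sequence, with folds of 5.86, 4.97, 5.16 and 5.22 in E92K libraries and 4.95, 5.60, 5.86 and 4.33 in H2A libraries. The values of the groups were interleaved, and the difference of −1.35 points (95% confidence interval −14.9 to 12.2) had an adjusted p of 0.977 in limma. A region 6.5 kb upstream, chr11:2891983-2893044 in an intron of SLC22A18AS, had folds of 4.20, 4.65, 4.28 and 4.43 in E92K libraries and 3.40, 4.599, 4.13 and 4.18 in H2A libraries. The E92K values lay within the range of the H2A values, except for the highest. The strongest region near CDKN1C, chr11:2901684-2903034, covered the TSS of the imprinted transporter gene SLC22A18, with its strongest summit 48 bp from it. Its fold was 9.97, 10.1, 9.26 and 9.04 in E92K libraries and 7.997, 8.83, 8.13 and 10.3 in H2A libraries. H2A replicate 4 lay above all E92K libraries and the other H2A libraries below them, and the difference of 7.34 points had an adjusted p of 0.730 in limma.

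One region of the imprinted loci differed between the groups by 3 libraries. It spanned chr11:2888254-2888726, over an exon of SLC22A18AS 2.8 kb upstream of the CDKN1C TSS, with a CTCF core near its summit. No E92K library had a peak there, against 3 H2A libraries with folds of 4.37, 3.61 and 3.73 in replicates 1, 3 and 4. Summits held 83 to 92 fragments in those libraries over a local background of 20.3 to 23.7 fragments. The −log10 q of these calls was 28.5, 20.3 and 23.3 in H2A replicates 1, 3 and 4. H2A replicate 2 had no call there either, and Fisher's exact test gave an unadjusted p of 0.143. Differences of 3 or more libraries with fewer calls in E92K were found in 1332 of 96872 regions (1.38%).

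Across all regions, presence in every E92K and no H2A library was found for 135 of 96872 (0.139%), and presence in every H2A and no E92K library for 178 (0.184%). None of the 26 regions was of either kind. Fisher's exact test of presence (two-sided), whose smallest possible p with 4 libraries against 4 is 0.0286, passed Benjamini-Hochberg adjustment in 0 of the 96872 regions (0%). A p of that size passes only if most regions reach it, so this count holds no information on single regions. The limma test of ranks passed in 0 of 36895 regions (0%), while 3264 had an unadjusted p under 0.05. Ranking by the deposited −log10 q in place of fold gave 172 higher and 20 lower regions in E92K libraries, with none of the 11 among them.

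**Figure D3:**
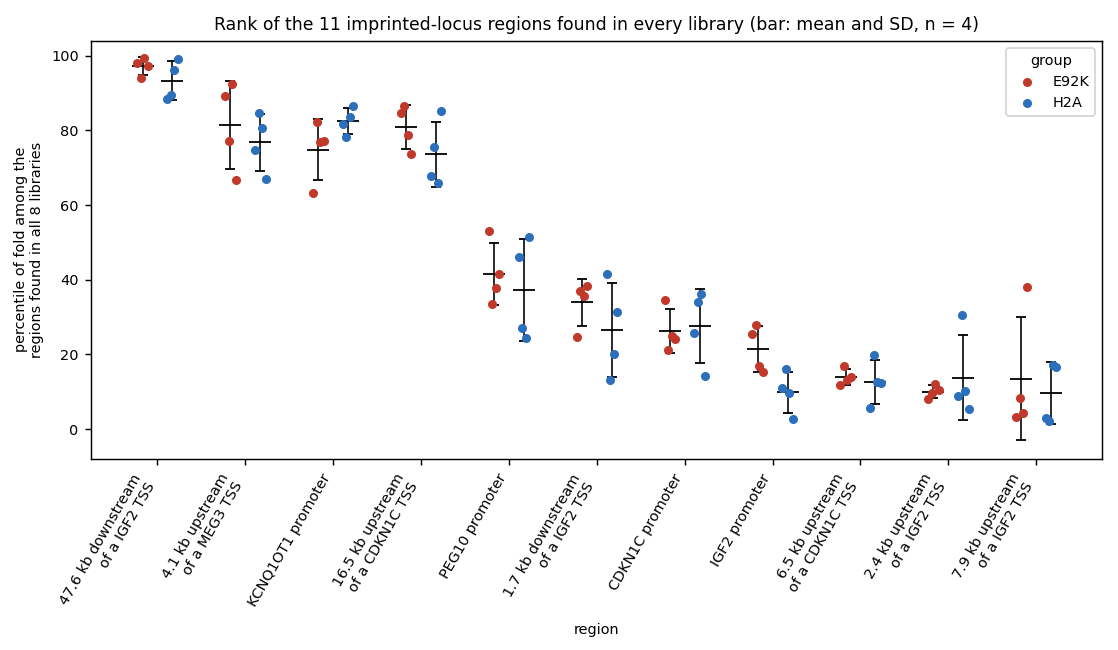
Percentile of fold among the 36895 regions found in every library, for the 11 of them in the imprinted loci. Each point is 1 library (E92K in red on the left, H2A in blue on the right of each pair), and bars give the mean and SD of 4 libraries. At the IGF2 promoter the means are 21.4 in E92K and 9.84 in H2A libraries, and in each of the 11 pairs at least 1 library of one group lies within the range of the other.

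The 11 shared regions fell into 2 ranges of rank. The interval between H19 and IGF2 came first with a mean percentile of 95.2 over 8 libraries. The MEG3 body at 79.0, the KCNQ1OT1 promoter at 78.7 and the SLC22A18 promoter at 77.2 followed within their spread. The PEG10 promoter at 39.3, the intronic IGF2 region with the CTCF core at 30.2 and the CDKN1C promoter at 26.9 formed the next neighbours, with SDs of 5.88 to 13.6 points within groups. The IGF2 promoter at 15.6, the region upstream of CDKN1C at 13.2, the IGF2 intron at 11.9 and the TH exons at 11.6 came last and were not separated by more than their spread. Promoters elsewhere with the nearest profile over the 8 libraries, among 18532 genes, were MCRIP2 for IGF2 (mean absolute difference 2.98 points), ENSG00000292259 for KCNQ1OT1 (2.51), IFFO1 for CDKN1C (3.57) and IRS4 for PEG10 (4.26).

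DLK1 encodes a transmembrane ligand-like growth regulator expressed from the paternal copy, and MEG3 a long noncoding RNA expressed from the maternal copy. Neither had a promoter peak. DLK1, chr14:100725705-100738224 on the plus strand, had 2 regions in its locus and neither was in all libraries. The region 17.0 kb upstream of its TSS, chr14:100709596-100709929, had folds of 3.95 and 2.86 in E92K replicates 1 and 4, against 4.06, 3.76, 3.78 and 2.95 in the H2A libraries. E92K replicates 2 and 3 had no call there. A region inside the gene was called in H2A replicate 3 alone, with a fold of 3.11. Between DLK1 and the start of the GENCODE span of MEG3, the only peak was chr14:100770963-100771219 in H2A replicate 2, with a fold of 3.39 and 11 fragments at its summit. The MEG3 span begins well upstream of the CpG-rich MEG3 TSS at 100826195, and the stretch between its start and that TSS held no peak in any library.

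MEG3, chr14:100779410-100861031 on the plus strand, had its 1 shared region inside the gene. It spanned chr14:100850928-100851674, overlapped a MEG3 exon and the host gene MIR493HG, and lay 4.1 kb from the nearest MEG3 TSS. The 300 bases printed above for the MEG3 gene body are its centre, with the CTCF core on them. Folds were 10.5, 9.13, 11.03 and 8.38 in E92K libraries and 8.64, 9.83, 9.50 and 8.42 in H2A libraries. The ranges overlapped, with the 2 highest and the lowest value in E92K libraries. The difference of 4.55 points (95% confidence interval −8.93 to 18.0) had an adjusted p of 0.882 in limma. Summits held 37.8 ± 5.74 fragments in E92K libraries and 37.2 ± 2.50 in H2A libraries (SD, n = 4 each). A region in MIR493HG beyond the end of MEG3, chr14:100872075-100872966, had a fold of 3.81 in E92K replicate 1, against 3.499, 4.53 and 4.74 in H2A replicates 1, 3 and 4.

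PEG10, a paternally expressed gene derived from a retrotransposon, shares a bidirectional promoter with SGCE, the sarcoglycan epsilon gene. The region chr7:94654936-94656257 covered the first exon of SGCE, UTR and coding sequence included, and ended 68 bp before the PEG10 TSS at 94656325. Its fold was 7.12, 5.83, 6.01 and 6.44 in E92K libraries and 6.35, 5.10, 5.01 and 7.14 in H2A libraries. The groups overlapped, and the highest value and the 2 lowest were all in H2A libraries. The percentile was 41.5 ± 8.41 in E92K libraries and 37.2 ± 13.6 in H2A libraries, with an adjusted p of 0.923 in limma for the difference of 4.29 points. A weaker region in an intron of SGCE, chr7:94649974-94650661, was called in E92K replicate 4 and in H2A replicates 1 and 4, with folds of 3.23, 3.05 and 3.41.

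MEST encodes a hydrolase-like protein and is expressed from the paternal copy. Its only region, chr7:130488868-130489272, lay 2.4 kb from a MEST TSS over an exon of the antisense RNA MESTIT1, and only E92K replicate 2 had it, with a fold of 3.26 and 11 fragments at the summit. The promoter printed above held no peak. From a MEST TSS to the nearest region shared by all libraries was 44.5 kb, and 10.4% of coding genes lay as far or farther.

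SNRPN and PEG3 lay in the widest empty stretches. SNRPN encodes a small nuclear ribonucleoprotein and starts at the control region of the domain lost in Prader-Willi syndrome. Its gene span of 155087 bp, chr15:24823637-24978723, and 20 kb on either side held no peak in any library. Of the 2981 coding and lncRNA genes with a locus at least as long, 1.78% were without a region. The stretch without a peak around it ran over 1548.6 kb, chr15:23878394-25426994, also across NPAP1, SNURF and SNHG14, and 31 of 96849 gaps (0.0320%) were as long. No base of the stretch was unknown in hg38, and no break in the deposited peak numbers fell in any of the loci. From a SNRPN TSS to the nearest region found in all libraries was 483 kb, which 0.691% of 19960 coding genes matched or exceeded.

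PEG3, a zinc finger gene expressed from the paternal copy (chr19:56810077-56840728, minus strand), likewise had no peak in any library. Its stretch ran over 508.1 kb, chr19:56595869-57103943, with ZIM2, MIMT1, SMIM17 and ZNF835 inside, and 0.225% of gaps were as long. The nearest region found in all libraries was 242 kb from a PEG3 TSS, and 1.98% of coding genes lay as far. Genes without any region within 20 kb made up 11.9% of the 38694 genes and 6.74% of coding genes, against 3 of the 10 imprinted genes (H19, SNRPN and PEG3).

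**Figure D4:**
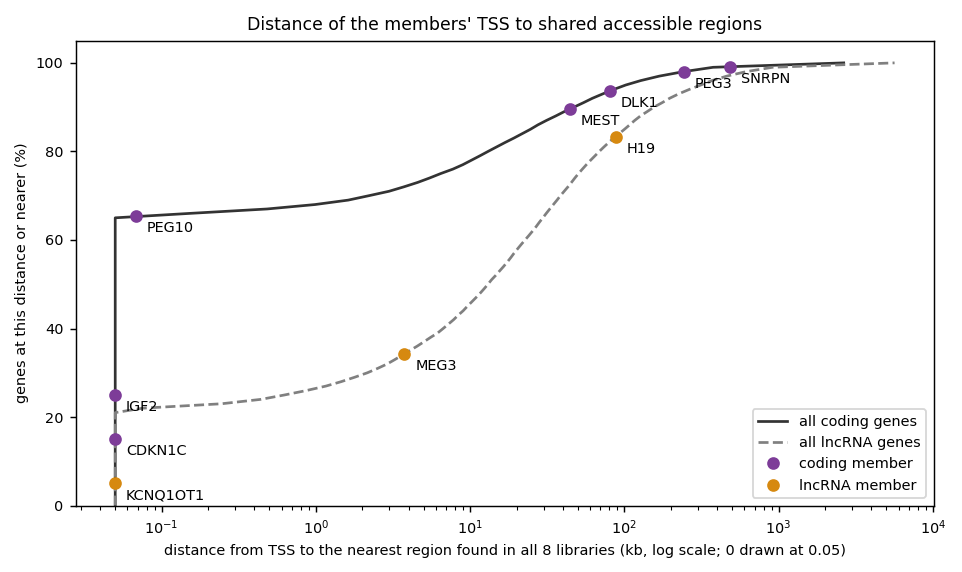
Distance from a gene's TSS to the nearest region found in all 8 libraries, in kb on a log scale, against the share of genes at that distance or nearer, for all coding (solid) and all lncRNA genes (dashed). Points mark the 10 imprinted genes on the curve of their class, with distances of 0 drawn at the left edge and spread apart in height. SNRPN at 483 kb and PEG3 at 242 kb sit near the top of the coding curve, and KCNQ1OT1, CDKN1C and IGF2 at 0.

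Most genes with a CpG-rich promoter had a promoter peak at that or another TSS, and 3 of the 7 such genes here had none. In the 1000 bp around the most CpG-rich TSS of each gene, a CpG ratio (observed over expected) of at least 0.65 with a GC content of at least 55% was met by 15157 genes. Of them 88.5% had a promoter peak in every library and 7.59% in none, counted at any basic TSS of the gene and not only at the CpG-rich one. Of the 10 genes, 7 met it: CDKN1C with a ratio of 0.945, DLK1 with 0.926, KCNQ1OT1 with 0.845, IGF2 with 0.819, MEST with 0.761, PEG10 with 0.683 and MEG3 with 0.659. DLK1, MEST and MEG3 had no promoter peak in any library, and the other 4 had one in every library. Of genes with a ratio of 0.9 to 1, the bin of DLK1, 3.85% had no promoter peak. Of genes at 0.7 to 0.8, the bin of MEST, 10.2% had none, and at 0.6 to 0.7, the bin of MEG3, 20.9% had none. SNRPN (ratio 0.668, GC content 54%) and PEG3 (ratio 0.643) lay just outside the criteria, and H19 had a ratio of 0.348. For IGF2 only E92K replicate 2 had a peak in the promoter window of the most CpG-rich TSS, and that peak did not reach the TSS. The shared IGF2 promoter region lay at another TSS.

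**Figure D5:**
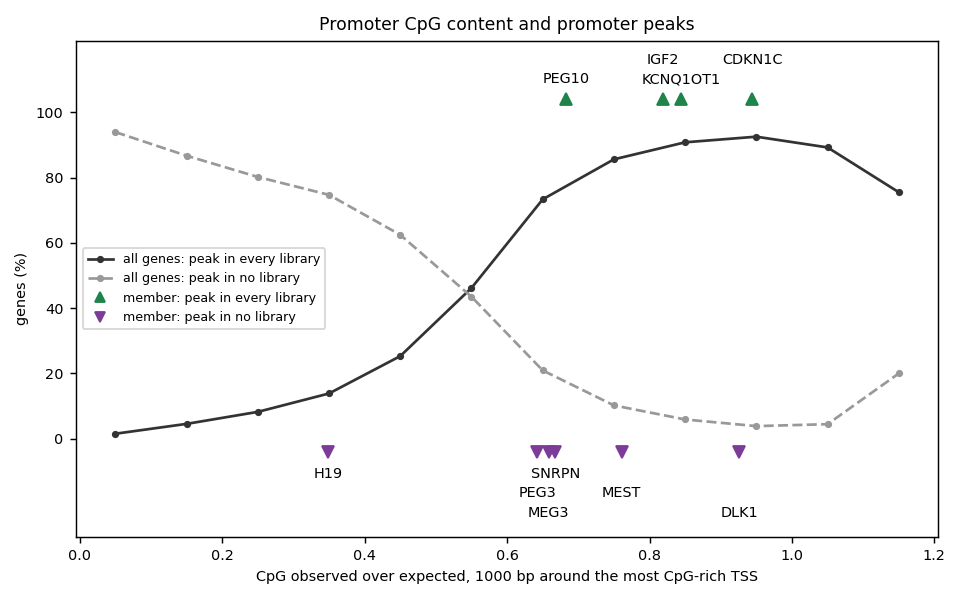
Share of all genes with a promoter peak in every library (solid) and in no library (dashed) against the CpG ratio at the most CpG-rich TSS. Peaks are counted at any basic TSS of a gene, and the 10 imprinted genes are placed by their ratio. Upward triangles are the 4 genes with a promoter peak in all 8 libraries and downward triangles the 6 with a peak in none, and the height of a triangle carries no value. DLK1 at 0.926 stands among ratios where 92.6% of all genes had a peak in every library.

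Motifs were searched on both strands in the 500 bp around the strongest summit of every region. TGCCGC was present in 7 of the 26 regions (26.9%), against 12.8% of all regions, and in 3 of the 11 shared ones (27.3%), against 22.98% of all shared regions. The 11 had a median GC content of 68%, against 54.4% of all shared regions and 47% of all regions. The part of base composition in these shares was not tested. The hexamer was present in 16.7% of the 300-base RefSeq promoters. The printed promoters of MEG3, SNRPN and MEST, all without a peak, held 1, 2 and 3 copies. They were picked as rich in CpG or in this hexamer, so their counts cannot be compared with that share. The H19 entry, also without a peak, held 0 copies. A CTCF core was present in 3 of the 26 regions (11.5%), against 5.67% of all regions, namely the intronic IGF2 region, the region upstream of CDKN1C seen in H2A libraries and the MEG3 body. AAGATGGC, the core of YY1, and GCGCATGC, that of NRF1, were in none of the 26, against 2.91% and 1.57% of all regions. The RefSeq promoter entries used for SNRPN and H19 held 1 copy of GCGCATGC each, and 3.05% of all RefSeq promoters held it.

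Other imprinted genes, 58 of 59 listed ones with an annotation, were described by their promoter peaks in the same way. A peak was present in every library in 29 (50%, against 47.1% of all genes). It was present in no library in 20 (34.5%, against 45.5%) and in some libraries in 9. Most of the 58 were coding, and among all coding genes the shares were 67.7% in every library and 26.0% in none. The share of all genes, which holds many lncRNA genes, is therefore not a matched comparison. None of the 58 had one in all 4 libraries of a group and 0 of the other. Those with a peak in every library included GNAS, GRB10, PLAGL1, IGF2R, UBE3A, PHLDA2, SGCE and MKRN3. Those with none included neighbours of the genes without a promoter peak, NDN, NPAP1, SNURF and SNHG14 beside SNRPN, ZIM2, MIMT1 and USP29 beside PEG3, and RTL1, MEG8 and MEG9 beside MEG3. Other neighbours went the other way, since MKRN3 and UBE3A near SNRPN and ZNF264 near PEG3 had a peak in every library. Near MEST, COPG2 and KLF14 had one in every library, and CPA4 and MESTIT1 in none. IGF2-AS and INS, beside IGF2 with its promoter peak, had none. MAGEL2 had a peak in 2 E92K but 0 H2A libraries, and ASCL2 in 4 E92K and 3 H2A libraries. Of 24 regulators of imprints, all coding, 15 had a promoter peak in every library (62.5%, against 67.7% of coding genes). Among them were ZNF445, its partner TRIM28, CTCF, the maintenance methyltransferase DNMT1, UHRF1 and SMCHD1. The other 9, ZFP57, CTCFL, DNMT3L, DPPA3, NLRP5, NLRP7, KHDC3L, OOEP and PADI6, which act in germ cells, eggs or early embryos, had none in any library. That is 37.5%, against 26.0% of coding genes.

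Over all 26 regions, E92K libraries held 16, 15, 14 and 15 (15 ± 0.816, SD, n = 4) and H2A libraries 17, 14, 16 and 17 (16 ± 1.414). The groups overlapped. Of the 26, 11 were in all libraries (42.3%, against 38.1% of all regions) and 9 in a single library (34.6%, against 26.5%). Deeper libraries detect weaker peaks, 3 of the 4 E92K libraries had a lower relative depth than every H2A library, and the part of depth in the regions called in some libraries was not tested.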

How the data were processed

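Each of the 8 libraries had 1 deposited peak list in narrowPeak layout. The labels give hg38 as the build of the alignments, and there is 1 list per sample, so peaks were not called on pooled samples. Not given in the sources used here are the aligner, the peak caller, the Tn5 shift and the treatment of duplicates, and each can change which weak peaks appear. The deposited fold is a ratio of summit to local background. The deposited p-values and q-values are −log10 values, with no −log10 q under 2. The deposited score follows from the −log10 q and was not used in any result. The labels name genomic DNA as the material although the extraction note speaks of RNA, and an outside company built the libraries.

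Overlapping or touching peaks of all libraries were merged into regions, and a library was counted as having a region from 1 bp of peak upward. Its strongest summit gave the fold. Summit fragments, local background and relative depth were recovered from fold and p with a Poisson model, within 0.001 of the −log10 p, for at least 99.96% of the summits tried in each list, which left out the most significant ones. Total reads per library were not analysed here. A region outside a list was not called there and may still be open, and fragment numbers carry counting error only.

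Presence was compared with Fisher's exact test over all regions. Ranks were compared with limma 3.58.1 (R 4.3.3, trend and robust), E92K minus H2A, over the regions found in all 8 libraries, with Benjamini-Hochberg adjustment at 0.05. The limma fit was tested on simulated data. The shifts put in were larger than the differences found in the imprinted loci, so the power to find those was not tested. Python 3.11.15, scipy 1.17.1, pandas 2.3.3, pysam 0.24.0 and matplotlib 3.10.9 were used. Genes came from GENCODE 44, and promoters reached 1000 bp either side of a basic TSS. Alternatives were a −log10 q of at least 5, equal list lengths (55527 peaks), merging across 200 bp, coverage of 50% of a region, flanks of 10 and 50 kb, promoters of 500 and 2000 bp, all transcripts, ranking by −log10 q, log2 fold after quantile normalization, depth as covariate, a replicate block and leaving out each library.

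The genes, gene lists and tests were chosen with earlier results of these data known. All 10 genes are named. Regions are named at their promoters, between the pairs, as the strongest of a locus, or where presence differed by 3 or more libraries, and other regions of the loci are given with their values as well. The gene most like each open promoter has the smallest mean absolute difference in percentile over the 8 libraries. Promoter sequences of members outside the RefSeq table are not printed. The results of 2 marker genes are not reported here.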

Additional observations from a re-analysis of the deposited data

Results flagged for a closer look

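The region over TH exons upstream of IGF2 had 1 E92K library far from the other 3. E92K replicate 4 stood at percentile 38.01 among shared regions, while the other E92K libraries stood between 3.18 and 8.43 and the H2A libraries between 2.19 and 17.1. This was the single case among 46 groups of 4 libraries examined, and chance gives about 1 in 20 groups. Without that library the difference between the groups was −4.45 points in place of 3.79. The cause was not tested.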

How the results depend on the processing

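The 4 genes with a promoter peak in every library and the 6 with none were the same in number under every alternative run, as were the 1 region found in at least 4 libraries between H19 and IGF2 and the 0 between DLK1 and MEG3. A flank of 50 kb gave 18 regions in every library in place of 11, and a mean difference of −2.75 regions per library (E92K minus H2A) in place of −1. That difference was −2 with a −log10 q of at least 5, −0.5 with a flank of 10 kb, 0 with 50% coverage and −1.67 to −0.667 without 1 library (−1.67 without H2A replicate 2). Peaks with a −log10 q of at least 5 left 15 regions in place of 26. The IGF2 promoter region chr11:2137031-2138191 and the TH exons were then not in all 8 lists. At that IGF2 region H2A replicate 4 had a −log10 q of 4.25. IGF2 still counted among the 4 genes, since that library had 6.46 at chr11:2150128-2150820, near another IGF2 TSS. Ranking by −log10 q gave 172 higher and 20 lower regions in limma genome-wide, with 0 in the imprinted loci. Leaving out 1 library in turn gave 217 to 321 regions in all E92K and no H2A libraries and 270 to 369 in all H2A and no E92K libraries. In the imprinted loci the count in all H2A and no E92K libraries was 0 to 1, and the 1, without H2A replicate 2, was the region 2.8 kb upstream of CDKN1C. The IGF2 promoter difference was 9.26 to 14.2 points under the alternatives, with adjusted p of 0.326 to 0.704. Differences that changed sign were far from the threshold in every fit. For the CDKN1C promoter they were 3.42 points ranked by −log10 q and, without 1 library, −5.83 to 1.47 (0.438, 0.823 and 1.47 without E92K replicate 2, H2A replicate 2 and H2A replicate 3). For the MEG3 body the difference was −1.56 with depth as covariate. Without 1 library the range was −4.45 (without E92K replicate 4) to 7.34 for the TH exons and −1.04 (H2A replicate 1) to 3.93 for the region 6.5 kb upstream of CDKN1C. It was −6.56 to 1.94 (H2A replicate 2) for the IGF2 intron and −0.000776 (H2A replicate 3) to 9.02 for the PEG10 promoter. The cause was not tested. Replicate numbers are shared by the groups, but libraries with the same number did not deviate together (correlations −0.0574 to −0.00279), and no E92K library correlated best with its own number. With the replicate block limma again made 0 calls, as it did with depth as covariate and with log2 fold after quantile normalization (calls only), and the mean difference with the block was −1 region. The weakest summits called limit what can be detected.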
